A study of Mus musculus with 8 samples.

Results

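The set comprised 9 complement genes, C3, C4b, C1ra, C1s1, Cfb, Cfd, Serping1, Cd55 and Cd59a, taken by symbol from a count table of 55471 genes, and each symbol matched a single row. They were measured by RNA sequencing of SV-LECs, an SV40-immortalised mouse line labelled as lymphatic endothelial and derived from the adventitia of the mesentery. 4 libraries came from cells left untreated and 4 from cells kept with 10 ng/ml TGFβ1 for 72 h, all of the same line and genotype. The study describes the 4 samples of a group as technical replicates, so errors and p-values cover the spread between these libraries and not that between independent experiments. Total counts lay between 18952504 and 26386941 per library, and 3 counts, used as the lower limit of detection, corresponded to 0.113 to 0.162 CPM (counts scaled to the normalized library size), which covers counting error only.

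Complement is a cascade of plasma proteins that tags surfaces for clearance and can pierce membranes. The classical pathway starts when C1q binds a target and activates the proteases C1r and C1s, which cut C4 and C2. The lectin pathway reaches the same step through MASP proteases, and the alternative pathway amplifies cleavage of C3 through factor B and factor D. Host cells are protected by C1 inhibitor, encoded by Serping1, and by the membrane proteins CD55, which speeds the decay of C3 convertases, and CD59, which blocks assembly of the membrane attack complex. The liver supplies most plasma complement, and fibroblasts, macrophages and endothelial cells also make components locally.

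The labelled cell type was compared with its markers. Of 7 lymphatic endothelial markers, Prox1, Lyve1, Ccl21a and Reln had at most 3 counts in each library, whereas Pdpn, Flt4 and Nrp2 were expressed. Of 8 pan-endothelial markers, Cdh5, Tie1, Emcn and Erg had at most 3 counts in each library, and Kdr and Eng were expressed. Pecam1 had 1, 1, 3 and 1 counts in untreated and 3, 3, 5 and 3 in TGFβ1-treated libraries. Tek stood at 0.659 ± 0.183 and 0.569 ± 0.0928 CPM in the same order (SD, n = 4), with overlapping groups. All 8 fibroblast and mural markers were above 3 counts in at least 1 library, with a summed level of 6117 to 8115 CPM in untreated and 7269 to 8498 CPM in TGFβ1-treated libraries. That sum was carried by Col1a1 and Col3a1, which encode fibrillar collagens, and Col1a1 was 1.75-fold higher while Col3a1 was 1.89-fold lower after TGFβ1. Dcn, which encodes decorin, and Pdgfra, a receptor of fibroblasts, were 3.76-fold and 2.77-fold lower, and Pdgfrb and Cspg4 rose. Lum had 8, 9, 4 and 9 counts in untreated and 0, 1, 0 and 0 in treated libraries. Rgs5 had 0 in every untreated library and 2, 7, 4 and 5 counts in the treated ones. Both genes had too few counts for a test. The 9 leukocyte markers summed to 15.8 to 18.8 CPM in untreated and 31.7 to 33.9 CPM in TGFβ1-treated libraries, carried by Cd68 and Cd14. Ptprc, Adgre1, Tyrobp, Cd3e and Cd79a had at most 3 counts in each library. Csf1r was 4.84-fold higher, with 3, 6, 10 and 6 counts in untreated and 32, 32, 19 and 33 in treated libraries. Lyz2, with too few counts for a test, had 3, 1, 1 and 2 in untreated and 10, 11, 13 and 10 in treated libraries. The lymphatic endothelial markers summed to 412 to 448 CPM in untreated and 426 to 440 CPM in treated libraries, mostly from Pdpn. Pdpn was 1.09-fold lower after TGFβ1, while Flt4 was 1.35-fold and Nrp2 1.33-fold higher. The mean of Pdpn was 342 ± 19.5 CPM in untreated and 313 ± 5.25 CPM in treated libraries (SD, n = 4). The pan-endothelial markers summed to 70.2 to 78.2 CPM and 162 to 170 CPM in the same order, mostly from Eng, which encodes the TGFβ co-receptor endoglin, at 62.0 ± 3.69 and 143 ± 3.81 CPM (SD, n = 4). Of 4 hepatocyte markers, Apoa1, Ttr and Serpina1a had at most 3 counts in each library. The part of these differences in the results that follow was not tested. In RNA from whole cultures, fewer cells of a type and less RNA per cell cannot be told apart.

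Several of the 9 genes have near-identical copies, and their counts depend on the few positions at which the copies differ. Over the coding bases of the longest transcript in GENCODE M21 (GRCm38), C4b was 96.1% identical to C4a, C1ra was 98.0% identical to C1rb, C1s1 was 95.7% identical to C1s2, Cd55 was 93.9% identical to Cd55b and Cd59a was 85.4% identical to Cd59b. The 60-base windows within 1 exon with the most differences between the copies are shown for the 3 pairs on which the results turn, in the 5′ to 3′ direction of the transcript, with the differing bases in capitals. The C4 windows, in exon 21 of both genes, differ at 13 bases and lie on the minus strand at chr17:34735430-34735489 and chr17:34816086-34816145.
C4b: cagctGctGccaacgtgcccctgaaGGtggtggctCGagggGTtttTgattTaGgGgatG
C4a: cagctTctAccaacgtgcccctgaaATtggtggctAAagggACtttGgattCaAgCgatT
The C1r windows, in exon 11 of both genes, differ at 11 bases and lie on the plus strand at chr6:124522654-124522713 and chr6:124580700-124580759.
C1ra: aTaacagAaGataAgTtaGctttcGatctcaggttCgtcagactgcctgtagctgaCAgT
C1rb: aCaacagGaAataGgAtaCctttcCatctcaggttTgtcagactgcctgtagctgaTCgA
The C1s windows, in exon 12 of C1s1 and exon 11 of C1s2, differ at 17 bases and lie on the minus strand at chr6:124531486-124531545 and chr6:124625708-124625767.
C1s1: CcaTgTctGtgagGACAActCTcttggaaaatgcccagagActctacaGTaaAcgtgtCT
C1s2: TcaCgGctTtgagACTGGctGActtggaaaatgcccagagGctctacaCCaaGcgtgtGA
A read of 75 bases can be placed where such differences fall within it. Of the 75-base stretches in the annotated transcripts of C4b, 22.7% also occurred in another gene, all of them in C4a. The share was 42.4% for C1ra, mostly with C1rb, 6.13% for Cd55 and 1.66% for Cd59a, and C3, Cfd and Serping1 shared none. For C1s1 it was 24.8%, with 13.0% shared with C1s2 and 11.8% with Gm16567 on the opposite strand. Cfb was the member with the largest share, 69.9%, all with Gm20547. Of the exon bases of Cfb, 79.5% are also annotated as exons of Gm20547 on the same strand. How the counting step treated such reads is not given in the sources used here.

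TGFβ1-treated SV-LECs had less C3, Serping1 and C1ra transcript and more Cd55 transcript than untreated cells. C3, the central component, was 3.82-fold lower. Serping1 was 2.08-fold lower, C1ra was 1.45-fold lower and Cd55 was 1.95-fold higher. C4b and Cd59a did not pass the test, and C1s1, Cfb and Cfd were at or below 3 counts in every library. Of 6 members with enough counts to be tested, 1 was higher and 3 were lower in edgeR's likelihood ratio test, at a false discovery rate (FDR, Benjamini-Hochberg) below 0.05, against 75.6% of all 13818 genes tested, 37.6% higher and 38.0% lower. The called share of these 6 genes is thus near the background, and their median log2 fold change of -0.38 stood beside -0.0064 for all genes tested. Groups did not overlap in 4 of the 6 genes, against 69.8% of all genes tested.

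**Figure D1:**
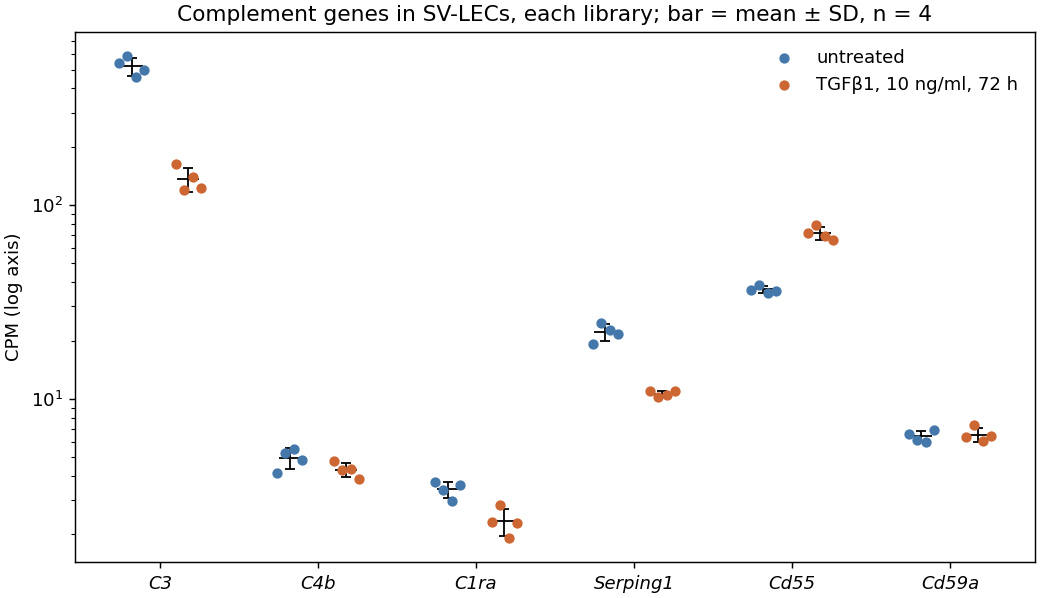
CPM on a log axis of the 6 complement genes that could be tested, with 1 point per library, untreated in blue and TGFβ1-treated in orange, and a black mark at the mean with its SD (n = 4 libraries per group). The groups are apart for C3, C1ra, Serping1 and Cd55 and overlap for C4b and Cd59a.

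C3 (ENSMUSG00000024164, GRCm38 chromosome 17, 57203970 to 57228136, minus strand) encodes the protein on which all pathways converge. Its level was 541, 586, 457 and 495 CPM in untreated libraries 1 to 4 and 162, 120, 140 and 122 CPM in TGFβ1-treated libraries 1 to 4. Every treated library lay well below every untreated one, and the highest treated value was under the lowest untreated value by more than the spread within either group. The mean was 520 ± 55.9 CPM in untreated and 136 ± 19.8 CPM in treated cells (SD, n = 4), or -1.93 ± 0.0932 (SE) as log2 fold change (edgeR FDR = 2.14e-88). By expression per kilobase of exon, C3 ranked between 296 and 441 among 13808 genes in the untreated libraries and between 1706 and 2400 in the treated ones. No other member reached a rank above 3444 in any library.

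C4b (ENSMUSG00000073418, chromosome 17, 34728380 to 34743882, minus strand) encodes C4, which the C1s protease cuts to build the classical C3 convertase. It stood at 4.14, 5.26, 5.55 and 4.82 CPM in the untreated and at 4.76, 4.28, 4.33 and 3.88 CPM in the treated libraries, so the groups overlapped. The log2 fold change was -0.21 with a 95% interval of -0.46 to 0.040 (edgeR FDR = 0.123). The gene was called lower without untreated library 1 (log2 fold change -0.29, edgeR FDR = 0.0349) and with libraries scaled by total counts only (-0.28, edgeR FDR = 0.0391).

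Its copy C4a, which encodes the sex-limited protein in mice and is annotated as a transcript without coding sequence in GENCODE M21, was called higher. C4a had 4, 21, 19 and 13 counts in the untreated libraries and 41, 69, 77 and 68 counts in the treated libraries. Every treated library was above every untreated library, and the log2 fold change amounted to 2.24 ± 0.274 (SE; edgeR FDR = 2.65e-17). When the reads of C4a and C4b were summed, which was chosen after the values were seen, the pair had 90, 161, 146 and 108 counts in the untreated and 129, 157, 165 and 168 in the treated libraries. The log2 fold change of the sum was 0.39 (SE 0.128, edgeR FDR = 0.00395), the opposite direction to that of C4b alone.

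Among the classical pathway proteases, C1ra (ENSMUSG00000055172, chromosome 6, 124512405 to 124523443, plus strand) encodes C1r, which activates C1s. It stood at 3.71, 3.38, 2.97 and 3.60 CPM in the untreated and at 2.33, 2.82, 1.92 and 2.29 CPM in the treated libraries. The groups did not overlap, but the closest libraries, untreated 3 and treated 2, differed by less than the SD within either group. The log2 fold change amounted to -0.54 ± 0.150 (SE; edgeR FDR = 0.000449). The copy C1rb was more abundant, at 8.65 ± 0.439 RPKM (CPM per kilobase of exon) against 1.15 ± 0.110 RPKM for C1ra in untreated cells (SD, n = 4), and fell by 0.46 on the log2 scale. With the reads of C1ra and C1rb summed, the log2 fold change amounted to -0.48 ± 0.0666 (SE; edgeR FDR = 2.45e-12).

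C1s1 (ENSMUSG00000038521, chromosome 6, 124530345 to 124542359, minus strand), which encodes the C1s protease, had 0 counts in all 8 libraries. Over all its exon bases, this allows a level of up to 0.0360 to 0.0519 RPKM per library. The limit is higher if reads from the 24.8% of stretches shared with other genes were not counted. The reads assigned to C1s genes were in C1s2, at 5.54, 5.56, 4.72 and 6.64 CPM in the untreated and 3.25, 3.16, 3.35 and 3.22 CPM in the treated libraries. C1s2 fell by 0.79 on the log2 scale (SE 0.135, edgeR FDR = 9.02e-09).

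**Figure D2:**
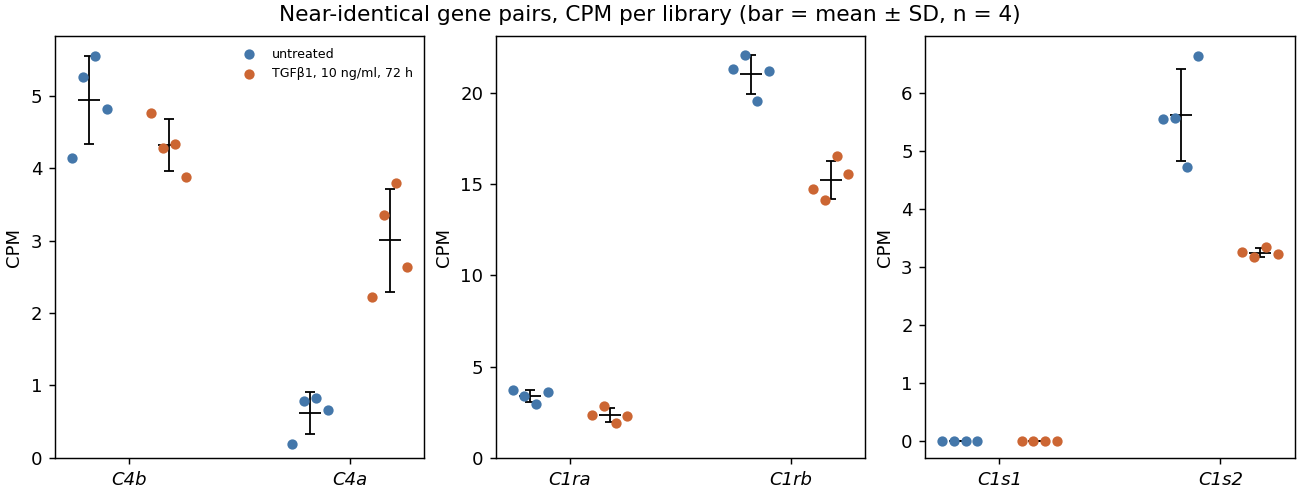
CPM of 3 pairs of near-identical genes, with 1 point per library, untreated in blue and TGFβ1-treated in orange, and a black mark at the mean with its SD (n = 4). C4a is higher in all treated libraries while C4b overlaps, C1ra and C1rb are both lower, and C1s1 is at 0 while C1s2 is lower.

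The proteases of the alternative pathway were at the limit of detection. Cfb (ENSMUSG00000090231, chromosome 17, 34856374 to 34862518, minus strand), which encodes factor B, had 1, 3, 0 and 1 counts in the untreated and 2, 0, 1 and 2 counts in the treated libraries. A difference was not detectable at this depth, and the bases shared with Gm20547 limit what the count covers. Cfd (ENSMUSG00000061780, chromosome 10, 79890853 to 79892655, plus strand), which encodes factor D, had 0 counts in all 8 libraries, which allows up to 0.122 to 0.176 RPKM per library.

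Of the 3 inhibitors, Serping1 fell and Cd55 rose after TGFβ1. Serping1 (ENSMUSG00000023224, chromosome 2, 84765387 to 84775444, minus strand) encodes C1 inhibitor, a secreted serpin that inactivates C1r and C1s. It was measured at 19.3, 24.6, 22.8 and 21.6 CPM in the untreated and at 10.9, 10.2, 10.4 and 10.9 CPM in the treated libraries. All treated libraries were lower and lay close together. The mean went from 22.04 ± 2.23 to 10.6 ± 0.380 CPM (SD, n = 4), or -1.06 ± 0.0896 (SE) as log2 fold change (edgeR FDR = 1.29e-31).

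Cd55 (ENSMUSG00000026399, chromosome 1, 130439027 to 130462744, minus strand) encodes decay-accelerating factor, held in the membrane by a glycosylphosphatidylinositol (GPI) anchor. Its level was 36.6, 38.9, 35.4 and 36.2 CPM in the untreated and 71.9, 78.8, 69.7 and 66.1 CPM in the treated libraries. It was the only member that was called higher, and the lowest treated library was above the highest untreated one by more than the SD of either group. The mean went from 36.7 ± 1.504 to 71.6 ± 5.37 CPM (SD, n = 4), or 0.96 ± 0.0628 (SE) as log2 fold change (edgeR FDR = 1.17e-51). With the reads of Cd55b added, which had at most 1 count in a library, the log2 fold change was also 0.96.

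Cd59a (ENSMUSG00000032679, chromosome 2, 104095801 to 104115354, plus strand) encodes the other GPI-anchored inhibitor of the set. It stood at 6.60, 6.16, 6.03 and 6.90 CPM in the untreated and at 6.38, 7.30, 6.05 and 6.44 CPM in the treated libraries, and the groups overlapped. The log2 fold change was 0.032, with a 95% interval of -0.18 to 0.24 (edgeR FDR = 0.792), and its sign turned with total-count scaling. Its copy Cd59b had at most 4 counts in a library.

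Per kilobase of exon, the order of the members in untreated cells was C3 (101 ± 10.9 RPKM), Serping1 (9.48 ± 0.961), Cd55 (7.57 ± 0.310), Cd59a (3.55 ± 0.221), C1ra (1.15 ± 0.110) and C4b (0.868 ± 0.107; SD, n = 4 throughout). No neighbours in this order overlapped between libraries. In TGFβ1-treated cells the order was C3 (26.5 ± 3.86 RPKM), Cd55 (14.8 ± 1.11), Serping1 (4.57 ± 0.164), Cd59a (3.61 ± 0.295), C1ra (0.785 ± 0.125) and C4b (0.757 ± 0.0631), so Cd55 and Serping1 had changed places, and C1ra and C4b overlapped. The summed level of the 9 genes went from 124 ± 11.4 to 51.0 ± 3.90 RPKM (SD, n = 4). C3 made up 83.1%, 82.5%, 79.9% and 81.0% of that sum in the untreated and 56.1%, 46.9%, 53.6% and 50.3% in the treated libraries. The share of Cd55 was 5.81% to 6.56% in untreated and 26.3% to 32.7% in treated libraries. The shares of C4b, C1ra and Cd59a were also higher in every treated library than in every untreated one, and shares of 1 sum are not independent of each other.

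**Figure D3:**
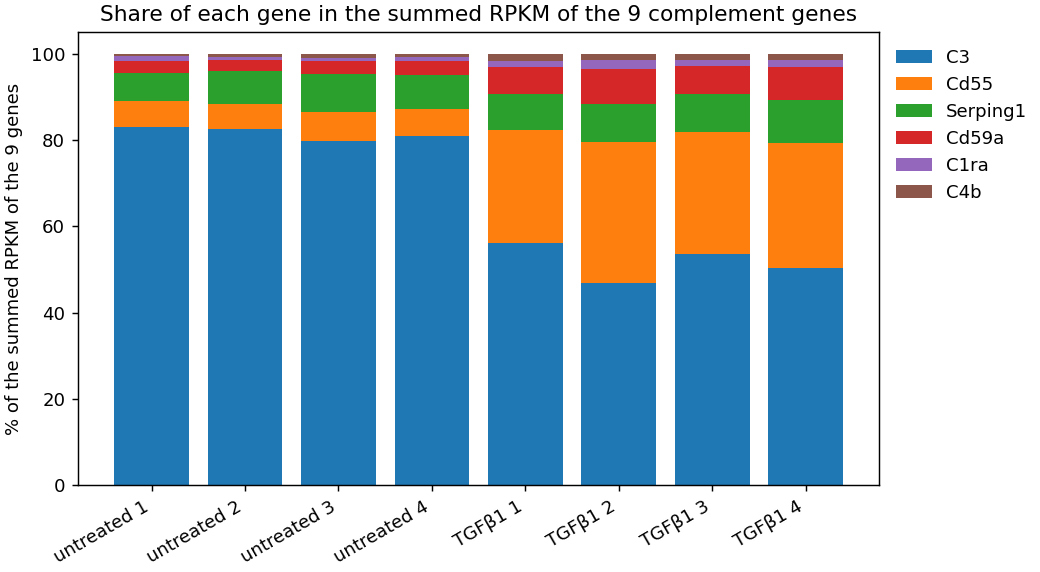
Share of each gene in the summed RPKM of the 9 complement genes, with 1 stacked bar per library. C3 holds 79.9% to 83.1% in the untreated and 46.9% to 56.1% in the TGFβ1-treated libraries, and Cd55 holds 5.81% to 6.56% and 26.3% to 32.7%.

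Ratios of reads within a library do not depend on how libraries are scaled. Of 6 planned pairs, 3 could be computed, since C1s1, Cfb and Cfd had at most 3 counts. The log2 ratio of C3 to Cd55 reads was 3.89, 3.91, 3.69 and 3.77 in the untreated and 1.18, 0.61, 1.01 and 0.88 in the treated libraries. The mean difference was -2.90, or 7.45-fold in reads. The log2 ratio of C3 to C4b reads went from 6.71 ± 0.28 to 4.96 ± 0.12 (SD, n = 4), a difference of -1.75. That of Cd59a to Cd55 reads went from -2.51 ± 0.11 to -3.45 ± 0.073 (SD, n = 4), a difference of -0.93. In each pair all treated libraries lay below all untreated ones (exact two-sided permutation test, p = 0.0286 for each pair, adjusted p = 0.0286 over the 3 pairs, the smallest value that 4 libraries against 4 allow). The adjustment had been planned over all 6 pairs. Each computed pair holds C3 or Cd55, whose groups were already apart above, so these p-values add no independent support. The ratios show unequal change within a pair and not that either gene was constant.

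The rest of the complement system was examined with a list of 51 other genes, of which 24 had at most 3 counts in each library and 17 could be tested. Of these 17, 6 were higher and 9 were lower, against 75.6% of all genes tested called, 37.6% higher and 38.0% lower. Their median log2 fold change was -0.14, beside -0.0064 for all genes tested. In the classical pathway, C1qa, C1qb and C1qc, which encode the chains of C1q, had 0 counts in all libraries and are named outside the rule for called genes. C1rl, which encodes a C1r-like protease, fell by 1.09 on the log2 scale, together with C1rb and C1s2. C2, which encodes the protease subunit of the classical C3 convertase, was lower by a log2 fold change of -0.18 with overlapping groups (edgeR FDR = 0.0445), a call lost in 10 of 16 alternative settings.

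In the lectin pathway, Masp1, which encodes MASP proteases, rose. It stood at 0.558 to 0.676 CPM in untreated and 2.87 to 4.33 CPM in treated libraries, or 2.57 ± 0.230 (SE) as log2 fold change (edgeR FDR = 2.71e-35). Masp2 was under the filter, with 6, 2, 1 and 3 counts in untreated and 19, 11, 13 and 8 in treated libraries, and was singled out after its values were seen. Colec12, which encodes a scavenger receptor collectin, was not called (log2 fold change -0.10, edgeR FDR = 0.0548). In the alternative pathway, Cfp, which encodes properdin, the stabiliser of the alternative C3 convertase, rose by 1.75. None of the 7 genes of the terminal pathway could be tested.

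Among soluble and membrane regulators, Clu, which encodes clusterin, had the largest fall of the list, from 12.2 ± 1.12 to 3.48 ± 0.275 CPM (SD, n = 4), a log2 fold change of -1.80. Cr1l, which encodes the rodent membrane regulator Crry, fell by 0.16, and Thbd, which encodes thrombomodulin, fell by 0.31. Of the receptors and binding proteins, C3ar1, Itgb2 and Calr rose by 1.83, 1.73 and 1.495, and Cd93 and C1qbp fell by 0.59 and 0.14. C3ar1, Itgb2 and Cfp are typical of leukocytes. The 9 leukocyte markers summed to 15.8 to 18.8 CPM in untreated and 31.7 to 33.9 CPM in treated libraries, carried by Cd68 and Cd14. Of these markers, Ptprc, Adgre1, Tyrobp, Cd3e and Cd79a had at most 3 counts in each library. What part leukocytes had in the rise was not tested. Itgam and Itgax, which encode the partners of Itgb2 in complement receptors, had at most 3 counts in each library and were also named after their values were seen.

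**Figure D4:**
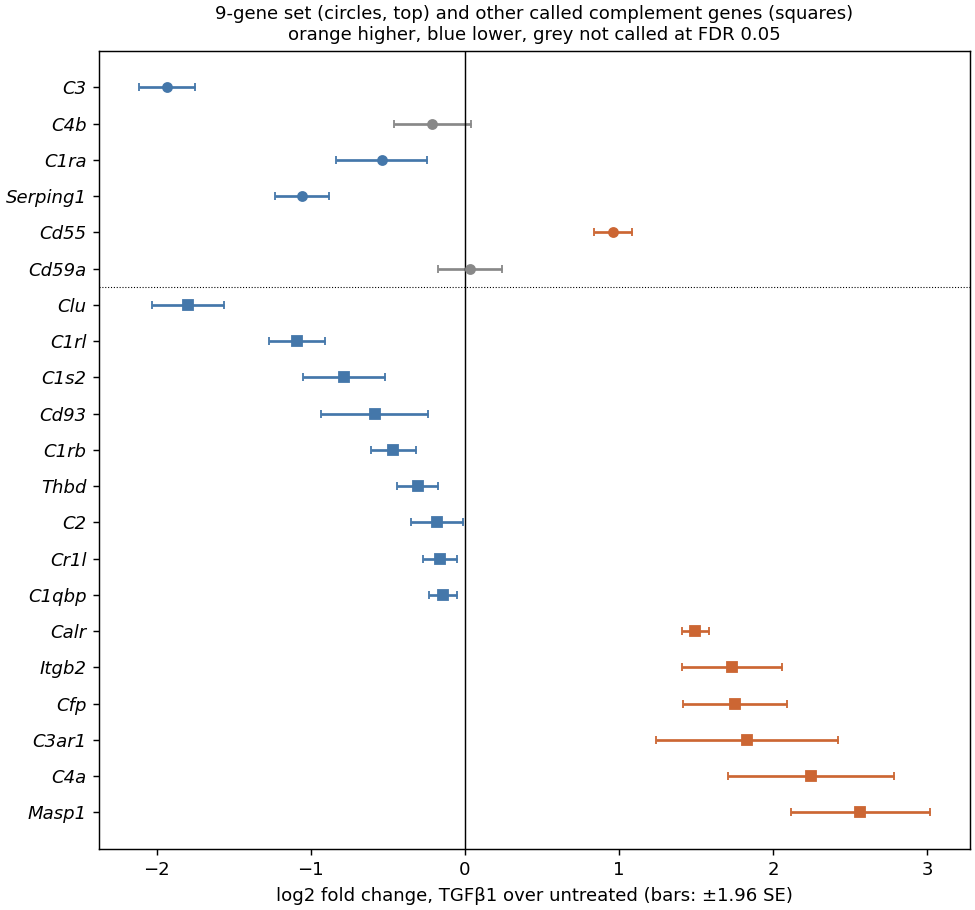
Log2 fold change of TGFβ1-treated over untreated cells with bars for the 95% interval, for the 6 tested members of the set (circles, above the dotted line) and the 15 other complement genes that were called (squares). Orange marks higher, blue lower and grey not called, with C3 at -1.93, Serping1 at -1.06 and Cd55 at 0.96 as the members farthest from 0.

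Promoter sequence was available for 6 of the 9 genes, in 7 windows of 250 bases before the start, from RefSeq (GRCm38.p6). C4b, Cfb and Serping1 had no entry. The windows of C3 and Cd55 are shown because these genes were called in opposite directions. They lie on the minus strand at chr17:57228137-57228386 and chr1:130462745-130462994, and are in lower case throughout because no motif searched was found in them.
C3: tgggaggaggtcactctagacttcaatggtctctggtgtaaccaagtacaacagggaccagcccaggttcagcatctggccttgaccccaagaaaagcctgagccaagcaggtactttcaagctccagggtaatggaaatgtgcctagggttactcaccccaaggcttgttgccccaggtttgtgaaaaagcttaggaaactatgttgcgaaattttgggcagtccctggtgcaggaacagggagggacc
Cd55: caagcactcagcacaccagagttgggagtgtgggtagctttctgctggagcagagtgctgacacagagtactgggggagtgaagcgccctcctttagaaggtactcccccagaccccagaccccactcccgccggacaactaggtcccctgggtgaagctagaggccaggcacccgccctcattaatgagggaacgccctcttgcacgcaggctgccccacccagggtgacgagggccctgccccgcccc
G and C made up 52.0% of the C3 window and 64.0% of the Cd55 window. Both strands of all windows were searched for the κB motif of NF-κB, TTCNNNGAA of STAT, the TPA response element of AP-1, GTCTAGAC of SMAD and TTGCGCAA of C/EBP factors. They were found in 0.357%, 7.01%, 6.75%, 0.168% and 0.165% of 32817 promoter windows of the same length, in that order, and in 0 of the 7 windows of the set, which says only that these letters do not occur there.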

How the data were processed

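Per the labels, total RNA of SV-LECs was made into stranded poly(A) libraries and sequenced with single-end reads of 75 bases. The authors deposited raw counts of reads per gene, without normalization. The submitters' processing notes name bcl2fastq 2.20.0.422, STAR 2.7.3a, featureCounts 1.5.1 and GRCm38. The annotation release, the strand setting and the treatment of reads that fit several genes are not given in the sources used here.

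The analysis ran in edgeR 4.0.16 under R 4.3.3. Low genes were removed by filterByExpr, libraries were scaled by TMM, and groups were compared with glmFit and glmLRT, the test the study names, with Benjamini-Hochberg FDRs over all 13818 genes tested. Standard errors came from the fitted model. RPKM used exon lengths of GENCODE M21, which matched 55144 of the 55471 genes. Ratios used 0.5 added counts and an exact permutation test in SciPy 1.17.1. The pipeline was tested on simulated data. The quasi-likelihood test, DESeq2 1.42.0, other scalings and filters, an FDR of 0.01, a prior count of 2, a replicate block, summed paralogs and each library left out served as alternatives. The members and lists were chosen with earlier results of these data known. Summed paralogs were added after seeing the data. All members are named, as are other complement genes called at an FDR under 0.05, and of the GPI anchor and contact system lists the gene with the largest called change in each direction. Genes named outside this rule are marked as such. A further result of the complement list is not reported here.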

Additional observations from a re-analysis of the deposited data

Results flagged for a closer look

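In 48 groups of 4 libraries, covering the tested members, the called complement genes and the 3 ratios, the highest and lowest library were compared with the rest. TGFβ1-treated library 3 stood apart for Cfp, at 3.74 CPM against 4.71 CPM in the next lowest treated library. Its gap was 0.895 of the range of the group, above Dixon's 95% critical value for 4 libraries. Chance alone gives such a value in about 1 in 20 groups. No group of a member of the set or of a ratio was singled out.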

How the results depend on the processing

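The calls of C3, C1ra, Serping1 and Cd55 held in direction and threshold in every alternative run. Across these, the log2 fold change ranged from -2.03 to -1.87 for C3, from -0.64 to -0.46 for C1ra, from -1.12 to -0.999 for Serping1 and from 0.89 to 1.00 for Cd55. C4b was called lower with total counts only (-0.28) and turned to 0.39 with C4a reads added, and it ranged from -0.29 to -0.15 with each library left out. Cd59a, not called in any alternative, was -0.035 with total counts only and ranged from -0.023 to 0.065 with each library left out, turning its sign without TGFβ1-treated library 2. The cause was not tested. Without the filter on low counts, 15 other complement genes were higher in place of 6. At that setting 6385 of all 27709 genes tested were higher, against 5198 of 13818 with the filter. The added calls came from genes with too few counts for the main test. Total-count scaling gave 4627 higher and 5899 lower genes in all, against 5198 and 5251. With each library left out, the ratios ranged from -2.98 to -2.79 for C3 to Cd55, from -1.87 to -1.64 for C3 to C4b and from -0.98 to -0.89 for Cd59a to Cd55, where the smallest p that an exact permutation test of 3 against 4 libraries gave was 0.0571. Whether same-numbered libraries share more than a number is not given in the sources used here. Their deviations from the group means correlated at -0.27 to -0.037, which cannot settle it. With a replicate block, 1 member was higher and 3 were lower as before, 5075 genes were higher and 5077 lower in all, and the ratios were -2.90, -1.75 and -0.93 (p = 0.125 for each, the smallest an exact sign-flip test of 4 pairs allows). C1s1, Cfb and Cfd, and 34 of the 51 other complement genes, had too few counts for a test, and the part of depth in this was not tested.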

Other observations

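CD55 and CD59 are attached to the membrane by a GPI anchor, so the genes that build this anchor were described as a list. Of 29 such genes 27 were tested, 13 were higher and 6 were lower after TGFβ1, against 37.6% higher and 38.0% lower among all genes tested, so the called share is near the background of 75.6%. They had a median log2 fold change of 0.19 beside -0.0064 for all genes tested. Pigf, which acts late in anchor synthesis, had the largest rise, from 27.9 ± 2.44 to 52.3 ± 1.61 CPM (SD, n = 4), or 0.91 as log2 fold change (edgeR FDR = 1.52e-45). Pigyl had the largest fall, with a log2 fold change of -0.67.

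C1 inhibitor also restrains proteases of the contact and fibrinolytic systems. Of 11 genes of these systems and of enzymes that cut complement proteins, 5 were tested, 4 were higher and 1 was lower, beside the same background of 75.6% called. Their median log2 fold change was 0.34, beside -0.0064 for all genes tested. Bdkrb2, which encodes a bradykinin receptor, had the largest rise, with 3, 6, 7 and 5 counts in untreated and 16, 11, 18 and 18 in TGFβ1-treated libraries (log2 fold change 1.64, edgeR FDR = 3.03e-06). Ctsl, which encodes cathepsin L, was the gene that was lower, from 1488 ± 77.6 to 890 ± 10.7 CPM (SD, n = 4), a log2 fold change of -0.74.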
